A study of Mus musculus with 16 samples.

Results

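Fragments of the mouse Y RNAs Rny1 and Rny3 and of the vault RNA Vaultrc5 were counted in 16 small RNA libraries. A fragment is an insert, that is a read without its 3′ adapter, of 15 nt or more that matched any of these 3 RNAs without mismatch and matched no miRNA hairpin. All 3 RNAs had reads, 7010707 of 245866946 inserts in all, which is 2.85%, and between 1.06% and 4.99% of a library. Rny1 gave 6681361 of these reads, Rny3 254905 and Vaultrc5 74441. They are 3 of 634 small RNA genes other than miRNA genes with reads, at places 2, 16 and 40 by mean level. Reads shared with another gene were counted for the members but not for other genes, so these places may be too high. Levels are in CPM, reads per 1000000 inserts of 15 nt or more.

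The cells were mesenchymal stem cells of C57BL/6 mice, in 8 groups of 2 libraries. The wild type group (WT) was Dicer f/f and carried mCherry, and the knockout group (KO) was Dicer -/- and carried mCherry. The other 6 groups were Dicer -/- cells given human Dicer (hsDicer) or a mutant of it: D1320A/D1709A, the single changes D1320A or D1709A, K70A, or Y971A/Y972A. All but WT therefore lack mouse Dicer. Asp1320 and Asp1709 are catalytic residues of the RNase IIIa and RNase IIIb sites that cut precursor miRNAs. K70A changes the helicase domain. Y971A/Y972A changes the PAZ domain, where Dicer anchors the precursor's end. Nothing in the labels says whether the replicates were separate cultures, so p-values measure only the spread between these libraries. The question was whether the position, length or amount of Y RNA and vault RNA fragments differed with Dicer. The main grouping set the 8 libraries with both RNase III sites intact (WT, hsDicer, K70A and Y971A/Y972A) against the 4 with no intact site (KO and D1320A/D1709A).

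Y RNAs are short noncoding RNAs made by RNA polymerase III. Their 2 ends pair into a stem that binds the Ro60 protein, with a larger loop between the strands and a run of U at the 3′ end that binds the La protein. Vault RNAs are also polymerase III transcripts and form part of the vault particle, a large ribonucleoprotein shell. In human cells, fragments of vault RNA have been reported to be made by Dicer, and Y RNA fragments have been reported to arise without the miRNA pathway. Fragments of both are common in small RNA libraries of many tissues.

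In the mouse genome (GRCm38, GENCODE release M21) Rny3 (ENSMUSG00000064945.1) is a gene of 102 nt at chr6:47781624-47781725 on the plus strand. Rny1 (ENSMUSG00000065701.1) is a gene of 112 nt at chr6:47788069-47788180 on the minus strand, 6344 bases away. Both are annotated as misc_RNA, outside other genes. The whole Y RNAs are shown because most reads of Rny1, and the leading fragments of both, came from their ends. Capitals mark the most abundant fragment that starts at nucleotide 1 and the most abundant fragment of the 3′ side, and T stands for U.
Rny1: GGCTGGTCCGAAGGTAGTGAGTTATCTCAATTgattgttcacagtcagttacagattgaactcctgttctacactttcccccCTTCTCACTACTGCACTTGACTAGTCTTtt
Rny3: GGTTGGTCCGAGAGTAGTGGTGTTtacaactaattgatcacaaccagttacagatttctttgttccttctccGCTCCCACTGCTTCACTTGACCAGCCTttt
In a minimum-energy fold (RNAfold) nucleotides 1 to 8 of Rny1 paired with 101 to 108, and 13 to 21 with 86 to 94, so that the capitals hold the 2 strands of the stem. The 5′ capitals also reach past it, since nucleotides 24 to 27 paired with 53 to 56, and 29 to 37 with 42 to 50. For Rny3 nucleotides 1 to 8 paired with 91 to 98, and 13 to 20 with 77 to 84. The longest run that Rny1 and Rny3 share is 12 nt (cagttacagatt), and it lies in the lower-case loop of both, which was nearly without reads in Rny1.

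Libraries held 10331036 to 20502254 inserts. Mir22, an abundant miRNA of these cells, followed the labels of WT, KO, hsDicer and D1320A/D1709A. It was at 180980 and 111677 CPM in WT, 2874 and 604 in KO, 109271 and 40680 in hsDicer, and 1150 and 407 in D1320A/D1709A. In the other mutants it was at 1091 and 581 (D1320A), 34974 and 24161 (D1709A), 79245 and 64901 (K70A), and 98370 and 21929 (Y971A/Y972A). With miRNA hairpins in the edgeR fit, Mir22 fell by 6.39 on the log2 scale in KO against WT (SE 0.73, adjusted p = 3.49e-15). Summed mesenchymal miRNA markers (9 of 10 names with reads) were at 250837 and 165732 CPM in WT and 6193 and 3497 in KO. Mir22 is in this list and made up most of the WT sum. The blood list (5 of 7 with reads) did not pass 1958 in any library and the neuron list (2 of 7) 5.33. The muscle list (1 of 5) did not pass 953, endothelium (1 of 2) 673, pluripotent cells (2 of 8) 59.4 and liver (1 of 2) 3.37. Replicate 1 was read to 41 nt and replicate 2 to 51 nt. Inserts of 15 to 17 nt took 0.406% to 8.89% of a library and mitochondrial rRNA 0.0805% to 0.98%. Sequence of the 5′ adapter took 0.547% to 20.7% and is part of the inserts used for CPM. Its share was 20.7% and 20.5% in D1320A and D1709A replicate 1, and 17.1% and 16.9% in D1709A and Y971A/Y972A replicate 2. In 6 replicate 1 libraries (all but those of D1320A and D1709A), 64 to 89 distinct member fragments were seen, against 174 to 410 in the other 10. In those 6, only 7 to 15 fragments had more than 10 and fewer than 1000 reads, against 125 to 332 in the others, so a fragment was either very frequent or nearly absent. The part of this unevenness in each result was not tested, and replicate 2 values are given beside many of the results.

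**Figure D1:**
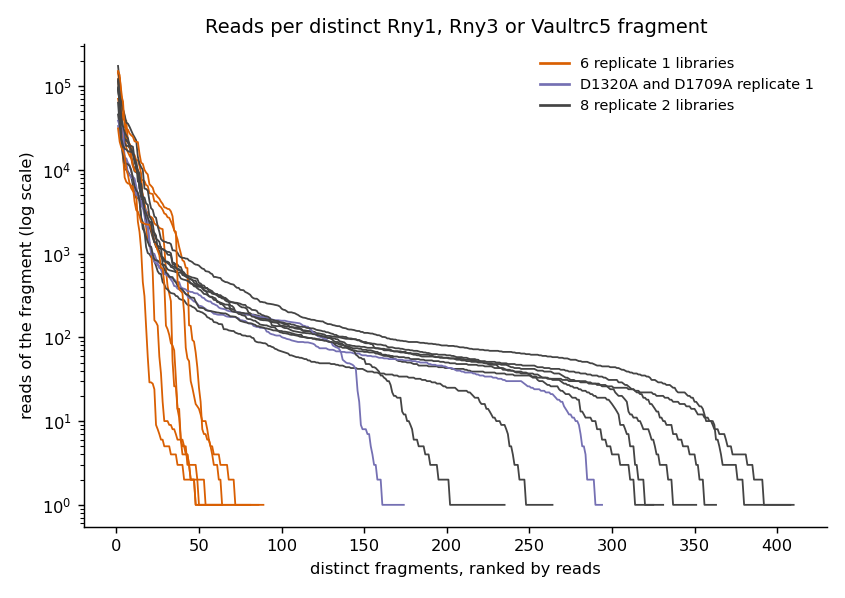
Reads of each distinct Rny1, Rny3 or Vaultrc5 fragment (vertical axis, log scale) against its rank within the library (horizontal axis), with a line per library (orange, the 6 uneven replicate 1 libraries; purple, D1320A and D1709A replicate 1; dark grey, replicate 2). The 6 orange replicate 1 lines drop steeply and end by 89 fragments, while the other 10 extend to between 174 and 410.

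Rny1 was the leading Y RNA in every library. Its level in replicates 1 and 2 was 28116 and 10082 CPM in WT, 49707 and 26638 in KO, 15965 and 22658 in hsDicer, and 39548 and 39928 in D1320A/D1709A. It was 14656 and 34661 in D1320A, 20707 and 24094 in D1709A, 11455 and 27556 in K70A, and 43501 and 30961 in Y971A/Y972A. Rny1 was present in the KO and double mutant libraries at levels within the range of the other groups or above it. Ordered by mean, the groups ran from D1320A/D1709A (39738 ± 269, SD, n = 2) and KO (38173 ± 16312, SD, n = 2) down to WT (19099 ± 12752, SD, n = 2), and every neighbour in that order overlapped the next.

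Rny3, the other mouse Y RNA, was far lower. Its level was 394 and 441 CPM in WT, 123 and 1287 in KO, 1282 and 1023 in hsDicer, and 907 and 1685 in D1320A/D1709A. It was 769 and 1512 in D1320A, 854 and 937 in D1709A, 450 and 1252 in K70A, and 2102 and 1271 in Y971A/Y972A. WT was low in both replicates, KO replicate 1 was the lowest library, and again each group overlapped its neighbour in the order of means. In KO replicate 1 only 1272 Rny3 reads matched to their last base, while 22571 more had 1 unmatched base at the 3′ end, so its low value rests on the rule of no mismatch.

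Vaultrc5 (ENSMUSG00000065145.1), a misc_RNA gene of 143 nt at chr18:36801866-36802008 on the plus strand and outside other genes, was the least abundant. Its level was 259 and 117 CPM in WT, 58.7 and 408 in KO, 0.971 and 279 in hsDicer, and 663 and 691 in D1320A/D1709A. It was 158 and 593 in D1320A, 140 and 251 in D1709A, 205 and 487 in K70A, and 1.13 and 448 in Y971A/Y972A. D1320A/D1709A was the highest group (677 ± 19.8, SD, n = 2) and did not overlap the next in the order of means, whereas all later neighbours overlapped. How many other genes have such a gap between groups of 2 libraries was not counted, so it is not read as a result. The near absence in hsDicer and Y971A/Y972A replicate 1 rests on 14 and 20 reads. In that Y971A/Y972A library 3212 further Vaultrc5 reads had 1 unmatched 3′ base, against 6 in the hsDicer library. Per 100 nt of RNA the median level over libraries was 24194 CPM for Rny1, 961 for Rny3 and 179 for Vaultrc5.

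**Figure D2:**
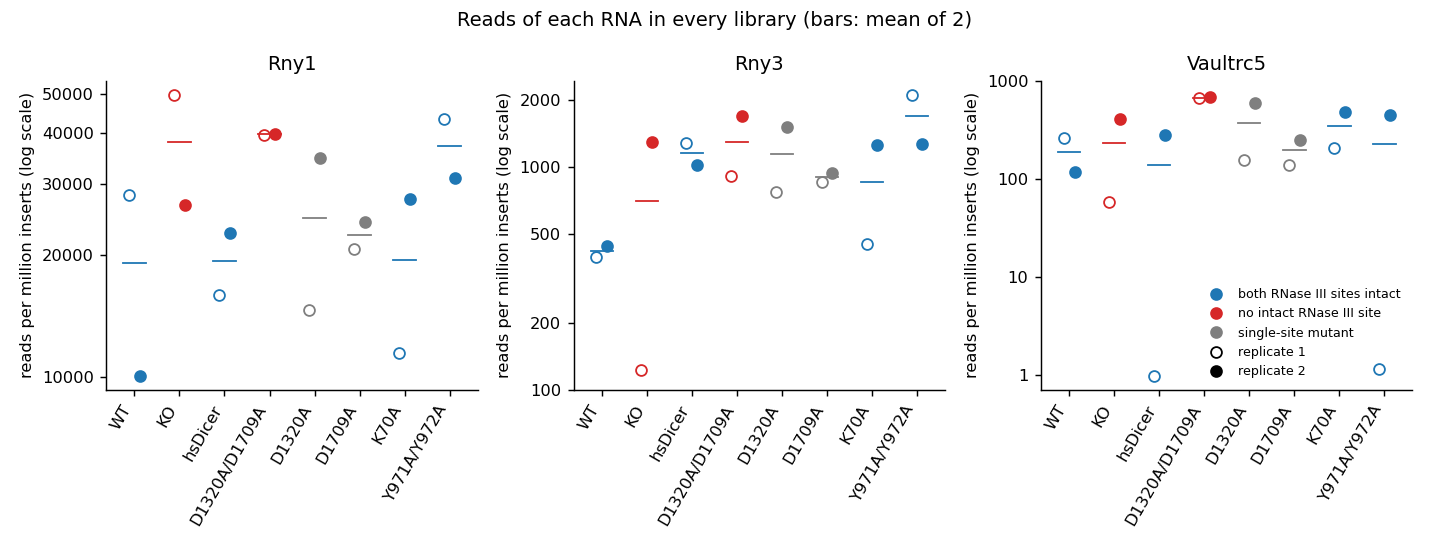
CPM (log axis) of Rny1, Rny3 and Vaultrc5 in each library by group; open points are replicate 1, filled points replicate 2 and bars the mean of both. Blue marks both RNase III sites intact, red none and grey the single-site mutants. Rny1 lies between 10082 and 49707 in every library, and Vaultrc5 is near 1 in hsDicer and Y971A/Y972A replicate 1 alone.

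None of the 3 RNAs passed the test for a change in level in any of the 8 group comparisons (edgeR quasi-likelihood test, adjusted p under 0.05 over 423 genes with 20 reads or more, a filter that all 3 passed). The background was the same, since 0 of 423 genes (0%) passed in each comparison; without adjustment 15 genes (3.55%) had p under 0.05 between intact and no intact sites, 1 (0.236%) in KO against WT, 2 (0.473%) in Y971A/Y972A against hsDicer and 0 in the other 5. DESeq2 called 1 gene in K70A and 1 in Y971A/Y972A against hsDicer, neither of them a member. In KO minus WT the log2 difference was 1.00 for Rny1 (SE 0.72, 95% interval -0.42 to 2.42), 0.75 for Rny3 (SE 1.81, -2.80 to 4.31) and 0.31 for Vaultrc5 (SE 2.42, -4.43 to 5.05), all with an adjusted p of 1 in edgeR. The median gene moved by 0.61 in that fit, and the direction of all 3 turned when libraries were scaled to snoRNA and snRNA reads (-0.50 for Rny1, -1.37 for Rny3 and -2.04 for Vaultrc5) or by TMM (-0.41, -0.71 and -1.35). In hsDicer minus KO it was -0.98 for Rny1 (SE 0.72), 0.71 for Rny3 (SE 1.81) and -0.74 for Vaultrc5 (SE 2.43). Rny3 turned to -0.59 when up to 2 unmatched 3′ bases were allowed. Leaving out 1 library at a time moved this difference from -0.16 to 3.23 for Rny3 and from -7.90 to 1.25 for Vaultrc5, whose lowest value came without hsDicer replicate 2 and highest without KO replicate 2. These intervals span several-fold changes in both directions for Rny3 and Vaultrc5, so a change of that size was not detectable here. In bulk samples less RNA per cell and fewer cells that make it cannot be told apart.

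With both sites intact, Rny1 lay at 10082 to 43501 CPM (median 25107, 8 libraries), against 26638 to 49707 (median 39738, 4 libraries) with no intact site, and the classes overlapped. The log2 difference was -0.78 (SE 0.43, 95% interval -1.61 to 0.06, edgeR adjusted p = 1, unadjusted p = 0.0697). With replicate number as a block in that fit it was -0.78 (SE 0.34, edgeR unadjusted p = 0.0356, adjusted p = 0.719). The miRNAs themselves make up 1.4% to 47.8% of a library, so their loss raises every other share. Scaled to inserts that match no miRNA, the Rny1 difference was -0.29 (SE 0.41), and scaled to snoRNA and snRNA reads it was -0.03 (SE 0.41). The median gene in the fit moved by -0.64 in the first scaling, -0.26 in the second and 0 in the third, beside these Rny1 differences. Within replicate 2 alone the Rny1 difference was -0.54 (edgeR adjusted p = 0.894). Rny3 differed by -0.07 (SE 1.10) and Vaultrc5 by -0.90 (SE 1.44), with adjusted p = 1 for both in edgeR. Within replicate 2 alone these were -0.58 and -0.72. Rny3 changed sign when scaled to inserts without miRNA (0.42, SE 1.10).

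The remaining comparisons set each human Dicer mutant against hsDicer. Rny1 minus hsDicer was 1.04 (SE 0.72) in D1320A/D1709A, 0.35 (SE 0.72) in D1320A, 0.21 (SE 0.72) in D1709A, 0.01 (SE 0.72) in K70A and 0.95 (SE 0.72) in Y971A/Y972A, on the log2 scale and with edgeR adjusted p of 1 in each. Vaultrc5 minus hsDicer ranged from 0.48 (D1709A) to 2.28 (D1320A/D1709A) with SE of 2.42 to 2.53, and its hsDicer mean rests mostly on replicate 2. Rny3 minus hsDicer ranged from -0.44 (K70A) to 0.55 (Y971A/Y972A). These 5 comparisons share the hsDicer libraries.

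Rny1 reads came from the 2 ends of the RNA. Reads ending in the last 8 nt made up 90.0% to 91.7% of Rny1 in the 8 replicate 2 libraries and 63.6% to 90.5% in replicate 1. Those starting in the first 3 nt made up 5.12% to 7.6% in replicate 2 and 8.94% to 33.9% in replicate 1, and between 0.512% and 3.37% did neither. On the 3′ side, at least 91.5% of reads in each of the 16 libraries began at nucleotide 83 or 84, just before the 3′ strand of the stem. On the 5′ side, at least 93.4% began at nucleotide 1. Their 3′ ends were less fixed: nucleotide 110 ended 19.8% to 54.9% of Rny1 reads, 111 ended 0.0721% to 19.7% and 107 ended 3.9% to 12%.

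Of 324 distinct Rny1 fragments of up to 36 nt, 25 were seen in all 16 libraries. The 5 most abundant by mean level were nucleotides 83-110, 84-110, 84-111, 1-32 and 84-107. Fragment 83-110 (28 nt, chr6:47788071-47788098) had a mean of 6129 CPM, 84-110 (27 nt) 4052, 84-111 (28 nt) 2267, 1-32 (32 nt, chr6:47788149-47788180) 2071 and 84-107 (24 nt) 1448. All 5 were seen in every library, KO and D1320A/D1709A included. In replicate 2, 83-110 was at 2231 to 7388 CPM with both sites intact and 7160 to 9153 with none, and 1-32 at 251 to 604 and 601 to 754, so the classes overlapped in both. In replicate 1, 83-110 overlapped again. There 1-32 did not, at 1056 to 4380 with both sites intact and 5185 to 8667 with none. In replicate 1, 1.05% of all fragments were lower in every intact-site library in this way. Scaled to inserts that match no miRNA, the replicate 1 classes of 1-32 overlapped too. The log2 difference between the classes was -0.75 (SE 0.86) for 83-110 and -1.38 (SE 1.06) for 1-32 (edgeR adjusted p = 1 for each). Between 1.06% and 9.76% of Rny1 reads in a library also matched another annotated transcript, mostly Gm24372 (304491 of 313165 such reads), another misc_RNA gene, and these are kept for Rny1.

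**Figure D3:**
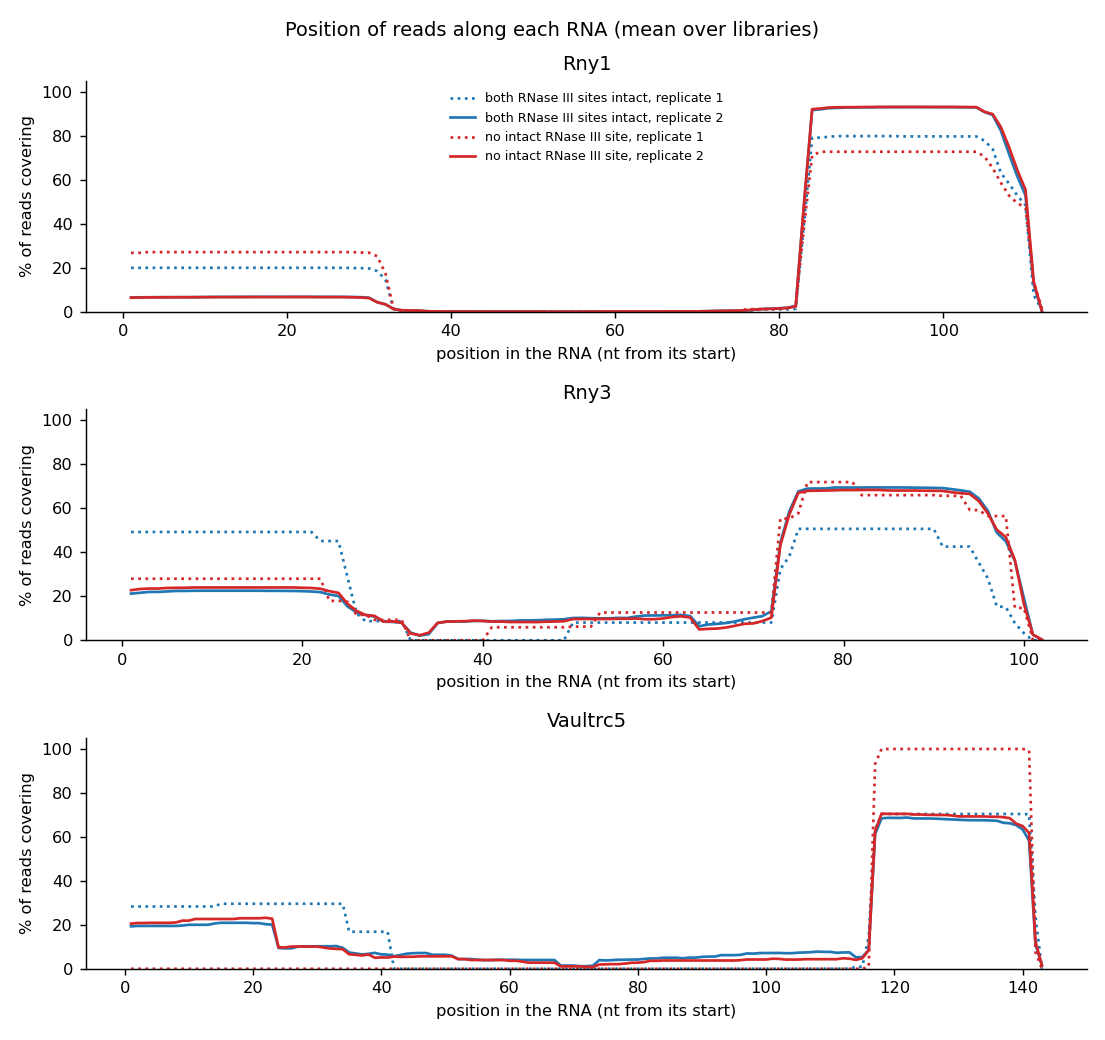
Mean percentage of an RNA's reads that cover each nucleotide, from its start, with both RNase III sites intact (blue) or none intact (red), in replicate 1 (dotted) and replicate 2 (solid). In replicate 2 the blue and red lines nearly coincide in all 3 RNAs, with Rny1 covered from nucleotide 83 onward and at 1 to 32.

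Rny3 also gave fragments from its ends, but with more from within. In replicate 2, 59.7% to 70.3% of its reads ended in the last 8 nt, 19.7% to 26.2% began in the first 3 nt and 9.91% to 18.1% did neither. In replicate 1 these shares ran from 0.366% to 85.5%, from 1.73% to 69.1% and from 0.0377% to 61.4%. Its 5 leading fragments were 1-24, 73-99, 1-25, 73-100 and 1-31, with means of 86.5, 84.2, 59.5, 58.4 and 54.7 CPM. Fragment 73-99 is the Rny3 counterpart of Rny1 83-110, since both hold the 3′ strand of the stem. In replicate 2 it was at 20.9 to 139 CPM with both sites intact and 144 to 175 with none. These did not overlap, and 7.5% of all fragments were lower with intact sites in this way. Scaled to inserts that match no miRNA, the replicate 2 classes of 73-99 overlapped. In replicate 1 the fragment ran from 0.0694 to 382 and from 0 to 0.0607. The replicate 1 values rest on 1 read in hsDicer, 3 in K70A, 14 in WT, 1 in D1320A/D1709A and 0 in KO, against 6743 in Y971A/Y972A, and no order is read from them. With 1 unmatched 3′ base allowed, KO replicate 1 (0.678 CPM) was above hsDicer (0.139) and K70A (0.203), and the classes overlapped. The 3′ side was not missing in KO replicate 1. Fragment 73-100 had 10 matched reads there and 11987 with 1 unmatched A at the 3′ end, which brought it to 1165 CPM. The log2 difference of 73-99 between the classes was -0.61 (SE 1.95, edgeR adjusted p = 1).

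In Vaultrc5 the chief fragment was 117-141 (25 nt), at the 3′ end of the RNA, with a mean of 120 CPM. The others were 1-23 (30.6), 117-142 (24.5), 116-141 (13.1) and 1-34 (10.4). Fragment 117-141 was at 0.347 and 49.5 CPM in WT, 57.3 and 204 in KO, 0.555 and 124 in hsDicer, 559 and 224 in D1320A/D1709A, 36 and 215 in D1320A, 29.7 and 72.6 in D1709A, 0.203 and 171 in K70A, and 0.792 and 170 in Y971A/Y972A. Within each replicate number the KO and D1320A/D1709A libraries were above the 4 intact-site libraries, but over all 12 the classes overlapped. The log2 difference was -1.96 (SE 1.80, adjusted p = 1 in edgeR). Scaled to inserts that match no miRNA, the replicate 2 classes overlapped, with K70A at 217 and KO at 209. In Y971A/Y972A replicate 1, 3209 reads of 117-141 carried an added A, against 14 without it; counting them brought that library to 182 CPM, above KO replicate 1 (57.3). The fragment was present in both KO libraries, with 592 and 3257 reads. In replicate 1 the order depended on the exact ends. WT was at 133 CPM for 117-142 and 125 for 116-141. KO was at 0.871 and 0.484 and D1320A/D1709A at 0.425 and 5.41, while the other intact-site libraries did not pass 0.17.

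Fragments were next tested singly: 350 of the 3919 fragments with 100 reads or more belonged to the members, 193 from Rny1, 114 from Rny3 and 43 from Vaultrc5. In edgeR, 0 of the 350 passed in KO against WT, in hsDicer against KO or between intact and no intact sites, where 0%, 0% and 0.0255% of all fragments passed. Without adjustment, 1, 1 and 8 of them had p under 0.05, against 18 (0.459%), 19 (0.485%) and 144 (3.67%) of all. Between intact and no intact sites, the median log2 difference was -0.55 over Rny1 fragments, -0.48 over Rny3 and -1.13 over Vaultrc5, beside -0.14 over all fragments. DESeq2 called 1, 1 and 2 member fragments, where 4.79%, 5.66% and 7.31% of the fragments it gave an adjusted p were called. Most of these calls rest on 1 library of their comparison. Rny1 85-104 had 11091 reads in KO replicate 1 and at most 4 in the other KO and WT libraries. Outside that comparison it had up to 3191 reads in an intact-site library. Rny1 3-36 had 4195 reads in D1320A/D1709A replicate 1 and at most 3 in any intact-site library.

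Of these 4 fragments, Rny1 76-110 had reads in both replicates of KO and D1320A/D1709A. It is 35 nt, at chr6:47788071-47788105, and was picked out after its values were seen. It extends the 83-110 fragment by 7 nt on the 5′ side, shown in capitals.
Rny1 76-110: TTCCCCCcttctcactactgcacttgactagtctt
It was at 0 and 5.46 CPM in WT, 0.347 and 8.47 in hsDicer, 0 and 4.68 in K70A and 0.906 and 3.86 in Y971A/Y972A. With no intact site it was at 135 and 31.5 in KO and at 462 and 37.8 in D1320A/D1709A, so that all 4 of these libraries were above all 8 with both sites intact. The single-site mutants had 13.8 and 21.6 (D1320A) and 45.5 and 75.5 (D1709A). The log2 difference between intact and no intact sites was -5.65 (SE 2.25, unadjusted p = 0.0119), which did not pass in edgeR (adjusted p = 1) and passed in DESeq2 (adjusted p = 0.0202). Of all fragments, 0.051% were separated in this way and direction, 2 of 3919, and of Rny1 fragments 1 of 193. Scaled to inserts that match no miRNA it stayed separated. It is a small part of Rny1, at most 462 of 39548 CPM. The separation held for this pair of ends and not for its start: all reads from nucleotide 76 were at 177 CPM in WT replicate 1, above KO (136 and 52.0) and above D1320A/D1709A replicate 2 (78.7). Reads from nucleotide 77 were at 18.9 to 119 in replicate 2 with both sites intact and 83.1 to 96.1 with none.

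In replicate 2 alone, 7.77% of Rny1, 17.5% of Rny3 and 14% of Vaultrc5 fragments were lower in every intact-site library than in both libraries with none, beside 7.5% of all fragments. Scaled to inserts that match no miRNA these shares were 5.7%, 9.65% and 9.3%, beside 5.66% of all. In the opposite direction, 1.55% of Rny1 and 0% of Rny3 and Vaultrc5 fragments were higher in every intact-site library, beside 0.766% of all. In replicate 1 alone, 4.66% of Rny1, 0% of Rny3 and 2.33% of Vaultrc5 fragments were lower in every intact-site library, beside 1.05% of all, and 0%, 0.877% and 0% were higher, beside 0.153% of all.

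Inserts of Rny1 seen whole (15 to 36 nt) were most often 28 nt in 15 of 16 libraries and 32 nt in K70A replicate 1, and 50.9% to 59.3% were 27 or 28 nt in replicate 2. Those of Vaultrc5 were most often 25 nt in all 8 replicate 2 libraries, and in replicate 1 they were most often 26 nt in WT and D1709A, 34 nt in K70A and 25 nt in the other 5. Reads over 36 nt or without adapter are outside these lengths. They were 55.2% of Vaultrc5 reads in K70A replicate 1 and 32.3% of Rny3 reads in WT replicate 1. Rny3 had no single leading length, with 27, 28 or 24 nt most frequent in replicate 2 and 20, 24, 25 or 26 nt in replicate 1. Mean lengths in replicate 2 were 26.7 to 27.2 nt for Rny1, 25.8 to 26.9 nt for Rny3 and 24.6 to 26.1 nt for Vaultrc5. The window of 21 to 24 nt, in which most miRNAs fall, held 10.5% to 19.4% of Rny1, 23.0% to 39.5% of Rny3 and 15.7% to 39.2% of Vaultrc5 inserts in replicate 2.

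**Figure D4:**
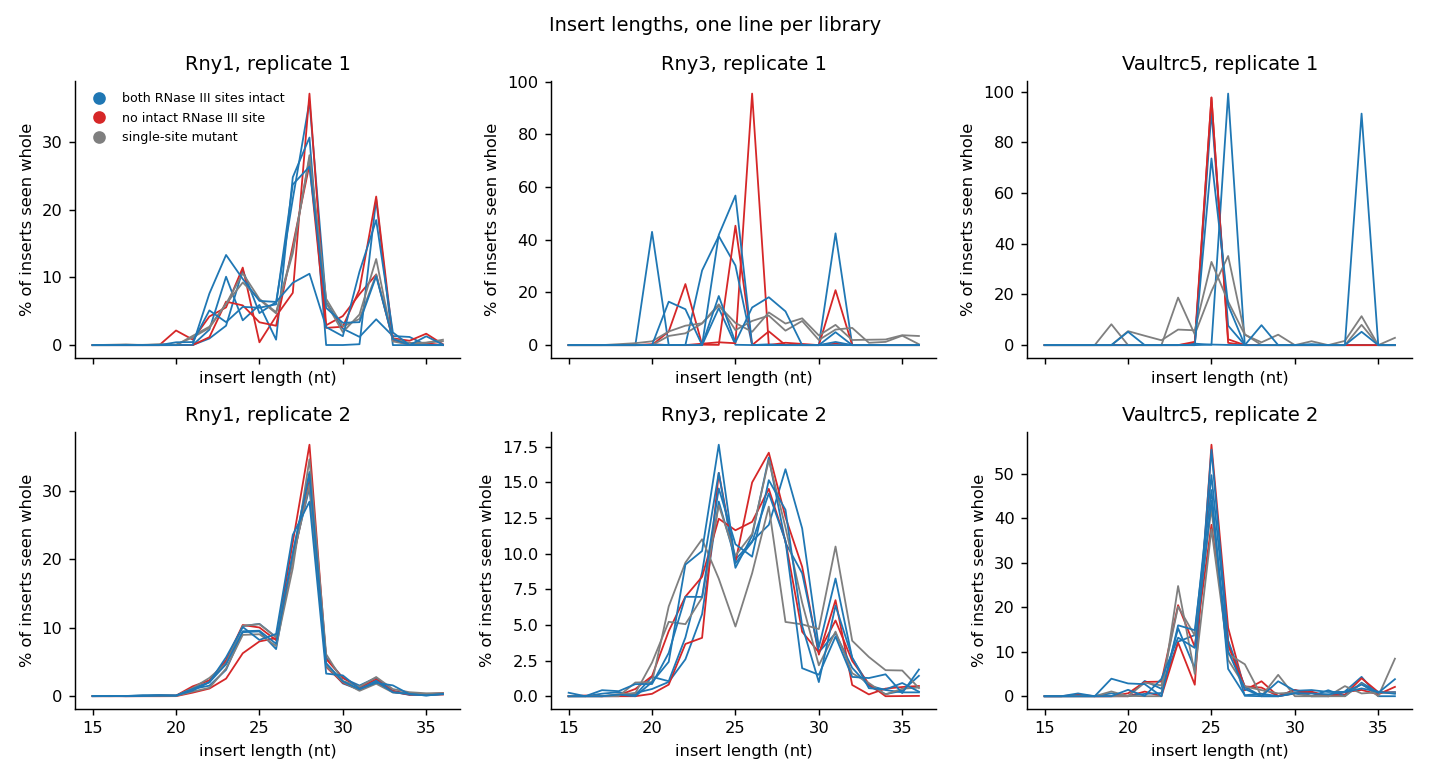
Percentage of inserts seen whole (vertical axis) by insert length in nt (horizontal axis) for each RNA, with a line per library (blue, both RNase III sites intact; red, none; grey, single-site mutants), replicate 1 above and replicate 2 below. In replicate 2 every library peaks at 28 nt for Rny1 and at 25 nt for Vaultrc5, whatever its group.

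No difference in length between the Dicer classes passed an exact permutation test over libraries (2-sided, 8 against 4, adjusted over 19 genes with 20 whole inserts in each library, of which 0% were called). The 21 to 24 nt share of Rny1 was 18.3% ± 5.24 (SD, n = 8) with both sites intact and 16.4% ± 5.32 (SD, n = 4) with none (exact permutation p = 0.61, adjusted p = 0.798). That of Rny3 was 37.3% ± 17.1 (SD, n = 8) and 21.7% ± 13.8 (SD, n = 4) (exact permutation p = 0.141, adjusted p = 0.589). In replicate 2 alone the Rny3 shares were 23.0% to 39.5% and 24.2% to 32.4%. Mean length was 27.1 ± 0.349 nt and 27.5 ± 0.763 nt for Rny1 (exact permutation p = 0.384, n = 8 and 4, adjusted p = 0.762), and 25.5 ± 0.956 nt and 26.0 ± 0.499 nt for Rny3 (exact permutation p = 0.384, n = 8 and 4, adjusted p = 0.762). In replicate 2 alone the mean length difference was -0.139 nt for Rny1 and 0.0409 nt for Rny3. The smallest p this design can give is 0.00404. A gene that alone reached it would not pass after adjustment over 19 genes, so the lack of calls says little. The unadjusted p of Rny1 and Rny3 were all well above it. Vaultrc5 did not enter, since hsDicer and Y971A/Y972A replicate 1 had under 20 whole inserts.

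The balance of the 2 ends was given by the share of reads whose centre lay on the 5′ side of the RNA's midpoint. For Rny1 it was 8.94% and 7.53% in WT, 20.5% and 7.56% in KO, 21.7% and 5.81% in hsDicer, and 33.9% and 5.96% in D1320A/D1709A. It was 18.5% and 5.36% in D1320A, 20.2% and 6.99% in D1709A, 33.9% and 7.93% in K70A, and 15.7% and 6.19% in Y971A/Y972A. All replicate 1 libraries were above all replicate 2 libraries. Replicate number and read length cannot be told apart here. With both sites intact the mean was 13.5% ± 9.90 (SD, n = 8) and with none 17% ± 13 (SD, n = 4) (exact permutation p = 0.622, adjusted p = 1 over 36 genes, of which 0% were called). Here too a gene that alone reached the smallest possible p could not pass after adjustment.

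Rny3 had 30.1% ± 4.94 (SD, n = 4) of its reads on the 5′ side in replicate 2 with both sites intact and 31.6% ± 5.14 (SD, n = 2) with none, and 1.73% to 69.1% in replicate 1. Over all 12 libraries its share was 39.7% ± 14.6 (SD, n = 8) and 29.8% ± 21.8 (SD, n = 4) (exact permutation p = 0.343, adjusted p = 1). Vaultrc5 had 15.2% to 43.7% of its reads on the 5′ side in replicate 2 and 0% to 96.2% in replicate 1, where K70A was the highest. The ratio of the 2 sides of the members passed in none of 8 edgeR comparisons, in which 0 of 222 genes (0%) passed and 0 had an unadjusted p under 0.05. Between intact and no intact sites its log2 difference was -0.33 (SE 1.39) for Rny1, 1.32 (SE 2.50) for Rny3 and 4.08 (SE 5.84) for Vaultrc5. With errors of this size, and no gene under 0.05 even without adjustment, the lack of calls says little about the balance of the ends.

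**Figure D5:**
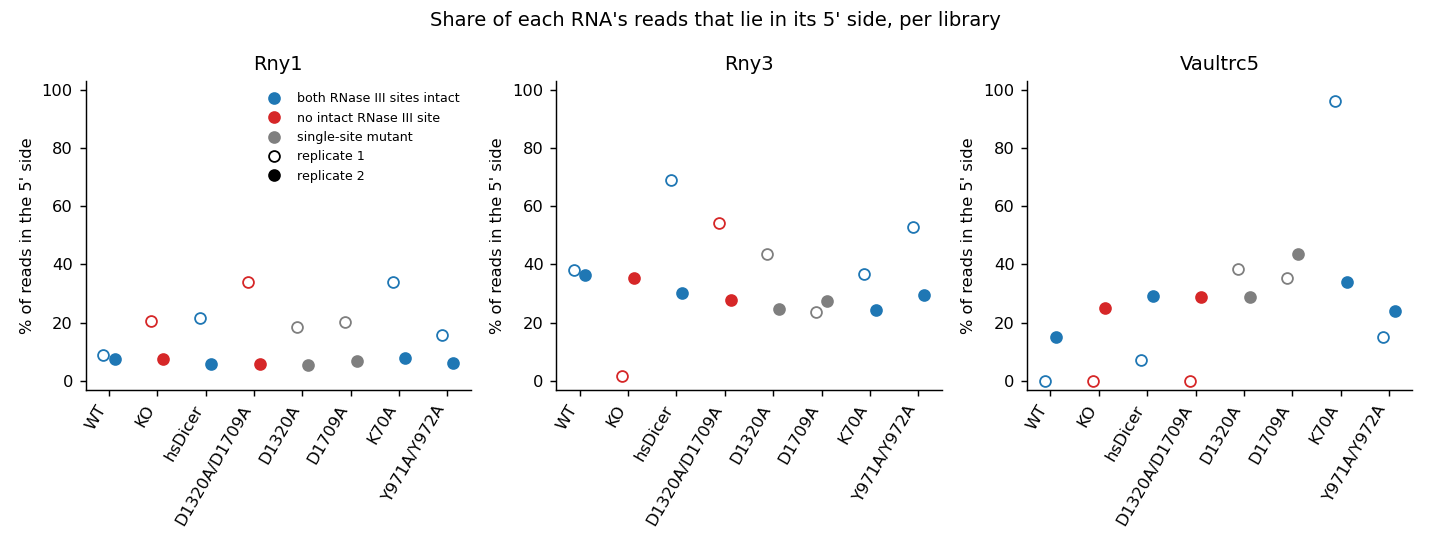
Percentage of each RNA's reads on the 5′ side of its midpoint, per library and group, with replicate 1 as open and replicate 2 as filled points (blue, both RNase III sites intact; red, none; grey, single-site mutants). Replicate 2 stays at 5.36% to 7.93% for Rny1 in all 8 groups, and replicate 1 spreads from 8.94% to 33.9%.

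Among other transcripts of RNA polymerase III (55 genes of the list with reads, 35 of them tested), 0 rose and 0 fell in any of the 8 level comparisons. Between intact and no intact sites their median log2 difference was -0.41, beside -0.64 over all 423 genes. Counted by reads matching no other small RNA gene, the most abundant was Rmrp, the RNA of RNase MRP, with a mean of 30.3 CPM. Rn7sk, a regulator of transcription elongation, followed with 23.2, and Rpph1, the RNA of RNase P, with 22.6. Rny1 was far above these values in these 15 to 50 nt libraries, but it kept its shared reads. Transcripts with several annotated copies lost theirs, so their levels cannot be set against that of Rny1 on equal terms.

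The 3 genes whose log2(CPM + 1) was most like that of Rny1 over the 16 libraries, among 309 others with 100 reads or more, were Gm24379 (Pearson r = 0.93), Gm24203 (r = 0.79) and Gm23921 (r = 0.65), all misc_RNA genes that share a stretch of sequence with Rny1. Their reads were 0.0763%, 0.0486% and 0.0113% as many as those of Rny1, and 86.9%, 76.1% and 61.7% of them were within 1 mismatch of Rny1. For Rny3 they were Snord69 (r = 0.87), Gm25894 (r = 0.83) and Snord53 (r = 0.83), all snoRNA genes. For Vaultrc5 they were the snoRNA gene Gm23008 (r = 0.84), mt-Tv (r = 0.83) and mt-Tg (r = 0.78), the last 2 being mitochondrial tRNA genes. The 3 members were little alike, with r = 0.14 between Rny1 and Rny3, 0.09 between Rny1 and Vaultrc5 and -0.05 between Rny3 and Vaultrc5. All these values share library and depth.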

How the data were processed

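Small RNA of 15 to 50 nt was sequenced from 16 libraries, per the labels' protocols. The files deposited by the authors hold counts per read sequence, with the adapter still on and no scaling; the tool that collapsed the reads is not given in the sources used here. Adapter trimming required a match of 12 bases, or of at least 5 where the read ran out, so inserts were seen whole to 36 nt (replicate 1) or 46 nt (replicate 2). Inserts of 15 nt or more were matched without mismatch to GENCODE M21 transcripts, after removal of those matching 2202 GENCODE miRNA transcripts or 1005 RefSeq hairpins. Reads matching a member and another transcript were kept for the member. Those matching several other small RNA genes and no member were counted for none of them. Libraries were scaled to inserts of 15 nt or more.

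Levels, 5′ to 3′ ratios and fragments were tested with edgeR 4.0.16 quasi-likelihood fits over all 16 libraries (R 4.3.3), 2-sided, with Benjamini-Hochberg adjustment over all small RNA genes or fragments. The common biological coefficient of variation was 2.01. Standard errors are the log2 difference over the root of F. Shares and lengths were tested by exact permutation over 495 splits. DESeq2 1.42.0 and limma 3.58.1 were alternatives, and RNAfold 2.7.2 and Python 3.11.15 were used. Scripts were tested on simulated data. A genome sequence was not used here, so unannotated copies of the members were not searched. The named fragments were the 5 of highest mean level per member; Rny1 76-110 was added after its values were seen. The members, lists and comparisons were chosen with earlier results of these data known.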

Additional observations from a re-analysis of the deposited data

Results flagged for a closer look

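Reads of the members with 1 unmatched base after their 3′ end were outside the main counts, and they were frequent: 1806082 for Rny1, 89970 for Rny3 and 14288 for Vaultrc5. The added base was A in 81.8%, 77.8% and 76.2% of them. In Rny1, reads with 1 added A were 14.9% to 22.1% of matched reads plus those with 1 unmatched base in every library, at 16% to 18.3% in replicate 2 with both RNase III sites intact and 17% to 19% with none. They sat mainly on the 3′ side, where 15.5% to 24.8% of reads had 1 added A, against 0.0358% to 12.2% on the 5′ side. The last matched base was most often nucleotide 110 of Rny1 (47% of the added A reads), 100 of Rny3 (49.3%) and 141 of Vaultrc5 (41.7%). For Rny3 the share was 14.7% to 19.2% in replicate 2, and ran from 0.142% to 94.3% in replicate 1, where KO was the highest. The sequencing adapter also begins with A, and its part in these reads was not tested. No test of a difference between groups was made.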

How the results depend on the processing

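No member passed in level, end ratio, share or length under any alternative tried. Counts of called genes moved where miRNA hairpins were added (5 in KO minus WT, 6 in hsDicer minus KO, 9, 1 and 3 in D1320A/D1709A, D1320A and D1709A minus hsDicer, and 33 between intact and no intact sites) and with DESeq2 (1 in K70A and 1 in Y971A/Y972A minus hsDicer). Member fragments called with DESeq2 were 1, 1 and 2. Leaving out each library in turn gave 0 to 2 genes in the level comparisons, 0 to 1 in the ratios, and 0 member fragments. Deviations of same-numbered libraries correlated above 0.1 in 21 of 28 group pairs (r from -0.01 to 0.40). Not every pair did, and the labels tie the numbers to nothing shared, so the main tests have no block, although the number coincides with read length. With a replicate block 0 genes and 0 member fragments were called. Exact permutation within replicate numbers gave adjusted p of 1 for the 5′ share of Rny1 and Rny3, 0.788 and 0.579 for their 21 to 24 nt share, and 0.76 for both mean lengths.

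Signs reversed as follows, none past the threshold. In KO minus WT, scaling to snoRNA and snRNA reads gave -0.50 (Rny1), -1.37 (Rny3) and -2.04 (Vaultrc5), TMM -0.41, -0.71 and -1.35, DESeq2 -0.80 (Rny3) and -1.31 (Vaultrc5), scaling to inserts without miRNA -0.023 (Rny3) and -0.52 (Vaultrc5), and the replicate block -0.90 (Vaultrc5). Between intact and no intact sites Rny3 became 0.42 scaled to inserts without miRNA, 1.24 scaled to snoRNA and snRNA reads, 0.76 with TMM, 1.00 with DESeq2 and 0.12 with the replicate block. Rny3 in hsDicer minus KO became -0.59 with up to 2 unmatched 3′ bases. With replicate 2 alone, chosen after seeing the data, the 5′ share difference became 0.103 (Rny1) and -1.46 (Rny3), and the mean length difference 0.0409 nt (Rny3). Causes were not tested.

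Leaving out libraries gave ranges of -1.09 to 0.42 (Rny1 end ratio), -1.76 to 1.62 (Rny3, KO minus WT), -0.16 to 3.23 (Rny3, hsDicer minus KO), -0.50 to 1.19 (Rny3, intact minus none), -1.68 to 1.12 (Vaultrc5, KO minus WT), -7.90 to 1.25 (Vaultrc5, hsDicer minus KO), -2.81 to 0.0934 (Vaultrc5, intact minus none), -7.17 to 2.13 (Rny1 5′ share) and -0.597 to 0.0127 nt (Rny1 mean length). The lowest Vaultrc5 value came without hsDicer replicate 2, which leaves 14 reads.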
